A study of Mus musculus with 9 samples.

Results

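The subject here is a set of 9 genes of the type I interferon response and of cytosolic RNA sensing in mouse embryonic stem cells (ESCs). They are the RNA sensors Ddx58 and Ifih1, the transcription factor Irf7, and the interferon-stimulated effectors Ifit1, Ifit2, Ifit3, Isg15, Oasl2 and Bst2. They were chosen by name, as genes that report whether cells respond innately to the siRNA put into them, and all 9 were found among the 25965 genes of the deposited table. The study depleted Dppa2 or Dppa4, which encode a pair of DNA-binding proteins of pluripotent cells, in E14 ESCs of 129/Ola background grown without feeders in serum and LIF. The paper describes its knockdowns in ESCs that carry the reporters MERVL::tdTomato and Zscan4c::eGFP. Cells received control, Dppa2 or Dppa4 siRNA at 0 h and again at 48 h and were collected at 96 h, which is 4 d after the first transfection. Each siRNA was a commercial pool (Dharmacon ON-TARGETplus SMARTpool) delivered with Lipofectamine. Polyadenylated RNA was sequenced with strand information from 3 libraries per siRNA, lettered A, B and C, 9 in all.

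Every group, the control included, was therefore transfected with siRNA and lipid, and no untransfected library belongs to the series. A response that all 3 groups share cannot be told apart from the level of untreated cells. The comparisons below ask whether the members differed between siRNA pools, and the levels themselves show how much of each transcript was there.

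As background, double-stranded RNA in the cytosol is bound by the helicases encoded by Ddx58 (RIG-I) and Ifih1 (MDA5), which signal through the adaptor Mavs and the kinase Tbk1 to the factors Irf3 and Irf7 and so to the interferon genes. Secreted interferon acts through its receptors and the kinase Jak1 to raise antiviral genes, among them the Ifit family, Isg15, the oligoadenylate synthetases and Bst2. Mouse ESCs are known for a weak interferon response compared with differentiated cells.

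Values are the log2 values deposited by the authors, in which the distributions of the 9 libraries were matched. Since matching keeps the rank of genes, each library's ranked values were turned back into numbers of reads. The estimated depth was 24.9, 39.2 and 19.0 Mreads on genes in control libraries A, B and C, 25.9, 20.3 and 16.9 Mreads in the Dppa2 siRNA libraries and 27.0, 28.4 and 20.4 Mreads in the Dppa4 siRNA libraries. These totals are approximate, and limits derived from reads cover counting error only. After the data were seen, differences were also taken in rpm (reads per Mread) summed over the libraries of a group, a scale without the matching of distributions, on which deep libraries weigh more and for which no test is given.

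The siRNA pools acted on their targets. Dppa2 stood at log2 values of 7.26, 7.16 and 6.94 in the control libraries, at 3.36, 3.86 and 3.68 after Dppa2 siRNA and at 7.01, 7.17 and 7.03 after Dppa4 siRNA. All 3 Dppa2 siRNA libraries lay far below the other 6. The difference from control was -3.49 (SE 0.14, 3 libraries per group, limma adjusted p = 2.13e-05), which is 11.2-fold lower.

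Dppa4 stood at 7.02, 7.11 and 7.06 in the control libraries, at 7.11, 7.07 and 7.17 after Dppa2 siRNA and at 6.16, 6.14 and 6.09 after Dppa4 siRNA. The 3 Dppa4 siRNA libraries were the lowest, and the other groups overlapped. The difference from control after Dppa4 siRNA was -0.93 (SE 0.08, limma adjusted p = 0.000281), which is 1.91-fold lower, so that the targeted transcript was still present at a level near 6.13. By qRT-PCR and Western blotting, other measures than these libraries, the paper reports a larger loss of Dppa4 mRNA and protein. In bulk RNA, fewer cells that express a gene and less RNA in each cell cannot be told apart.

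The cells carried the markers of ESCs. All 8 ESC markers chosen (Pou5f1, Nanog, Sox2, Zfp42, Esrrb, Klf4, Tdgf1 and Dppa5a) had reads in every library, and their summed level was 5323, 5613 and 4606 rpm in the control libraries, 5458, 5738 and 5447 after Dppa2 siRNA and 5186, 5422 and 5501 after Dppa4 siRNA. Dppa5a was the most abundant per kilobase, followed by Pou5f1. Control library C had the lowest sum, and the other control libraries lay within the range of the knockdown libraries. Nanog, Sox2, Zfp42, Esrrb, Klf4 and Tdgf1 were each lowest in control library C. There Zfp42 stood at 424 rpm, against 825 and 788 in control libraries A and B. Pou5f1 and Dppa5a were lowest in control library A. Limma called 0 of these 8 in each comparison, with 0 at an unadjusted p under 0.05 and 0 by both call rules together. Over all genes tested, 3.44% were called after Dppa2 siRNA, 3.44% after Dppa4 siRNA and 0.0205% between the knockdowns, and 15.7%, 18% and 6.76% had an unadjusted p under 0.05, so a count of 0 called in 8 is near these shares.

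Most of the members were scarce. A gene was tested when its log2 value exceeded -2 in at least 3 of the 9 libraries, which held for 14601 genes and for 5 of the 9 members, Ddx58, Ifit2, Isg15, Oasl2 and Bst2. The other 4, Ifih1, Irf7, Ifit1 and Ifit3, had too few reads. On a scale corrected for length (log2 level per kilobase of exon, mean of 9 libraries), Bst2 stood at 6.01, above 95.6% of the genes tested, and Ddx58 at 2.16, above 59.1%. Isg15 stood at -1.71 and Ifit2 at -1.87, above 16.1% and 14.9% of genes, and Oasl2 at -3.33, above 6.22%. The median over the 14413 genes tested that have an exon length was 1.50. Bst2 and Ddx58 were thus the only members above that median, and the order of Isg15 and Ifit2 is not resolved, since Isg15 alone varied by over 3 log2 units between libraries.

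Of the sensors, Ddx58, whose product binds RNA with a triphosphate at its 5′ end, was measured well. Its log2 values were 4.95, 4.83 and 4.94 in the control libraries, 5.02, 5.01 and 4.92 after Dppa2 siRNA and 4.93, 5.10 and 5.09 after Dppa4 siRNA, on an estimated 713 to 1560 reads per library. The groups overlapped, and all 9 values lay within a narrow band. The difference from control was 0.08 after Dppa2 siRNA (SE 0.09, 95% confidence interval -0.13 to 0.29, limma adjusted p = 0.836) and 0.13 after Dppa4 siRNA (interval -0.07 to 0.34, adjusted p = 0.523). In ratios, the interval ran from 0.913 to 1.22 for Dppa2 siRNA and from 0.95 to 1.27 for Dppa4 siRNA. Leaving out 1 library moved the first difference between 0.04 (without control library B) and 0.11 (without Dppa2 siRNA library C), and the second between 0.10 (without control library B) and 0.19 (without Dppa4 siRNA library A). In group rpm, which for this many reads rescales the matched values, the log2 differences were 0.09 and 0.14.

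Ifih1, which encodes the sensor of long double-stranded RNA, gave 2, 3 and 1 reads in control libraries A, B and C and 0 in each of the 6 knockdown libraries. Irf7, the factor that amplifies interferon transcription, gave 2 reads in control library C and 0 in the other 8 libraries. Over the 3 libraries of a group, 0 reads allow up to 0.0475 rpm after Dppa2 siRNA and 0.0396 after Dppa4 siRNA (a floor of 3 reads), against 0.0722 rpm of Ifih1 and 0.0241 of Irf7 in the controls. Ifih1 was thus seen in all controls and in no knockdown library, at a handful of reads, and Irf7 was at the limit of detection everywhere. Irf7 overlaps the gene Phrf1 on the opposite strand, and its value rests on the strand of the reads.

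**Figure D1:**
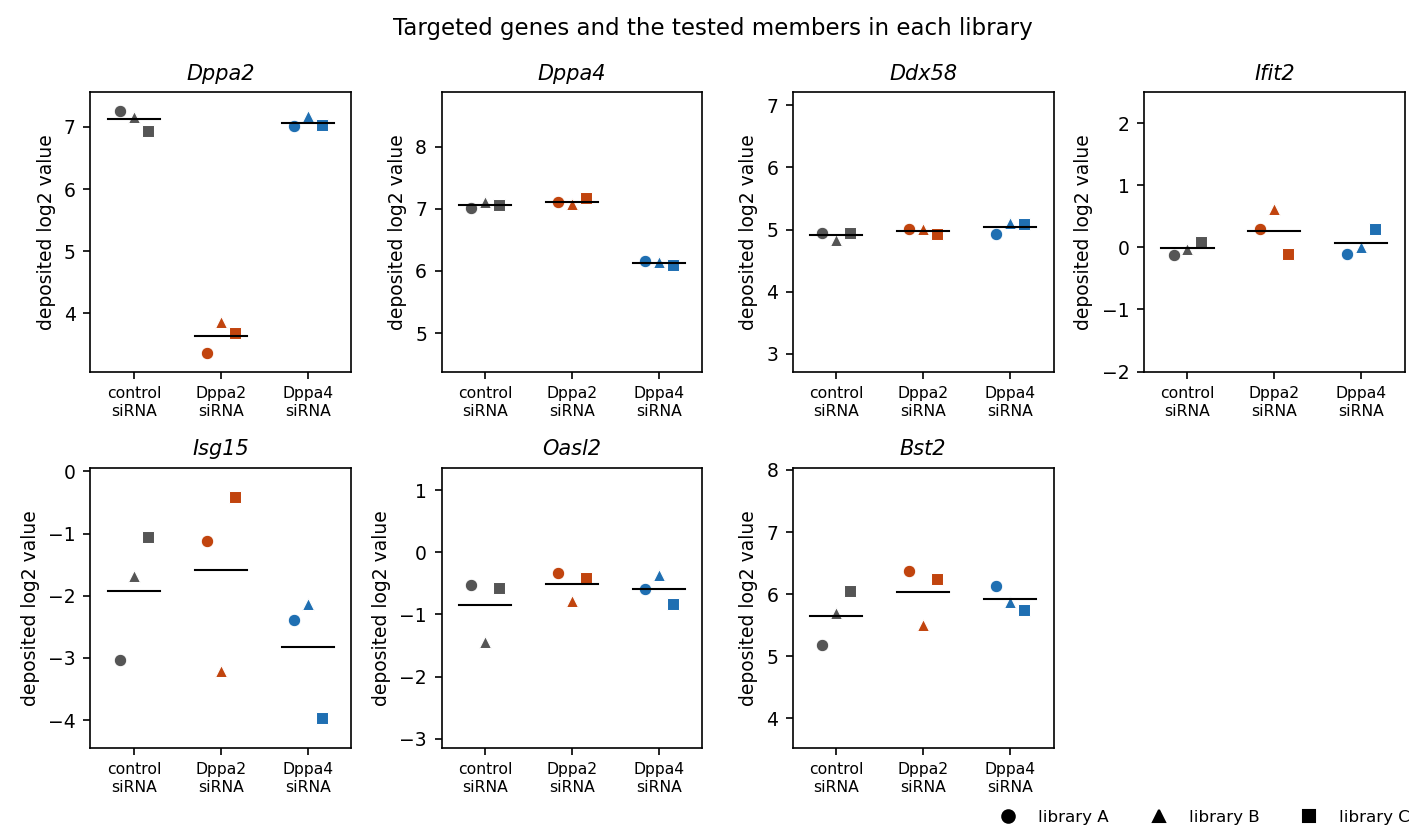
Deposited log2 values (y axis) of the targeted genes Dppa2 and Dppa4 and of the 5 tested members in each of the 9 libraries, by siRNA (x axis). Each point is a library with its letter as the shape, bars are group means, and all panels span the same log2 range. The targets separate by group, and the groups overlap for each of the 5 members.

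Among the effectors, the Ifit proteins bind foreign RNA and block its translation. Ifit2 stood at -0.12, -0.02 and 0.09 in the control libraries, at 0.29, 0.62 and -0.11 after Dppa2 siRNA and at -0.10, 0.01 and 0.30 after Dppa4 siRNA, on 17 to 57 reads per library. Dppa2 siRNA library B was the highest and library C of the same group among the lowest, so the groups overlapped. Against control, Ifit2 differed by 0.29 (SE 0.23, interval -0.24 to 0.81, limma adjusted p = 0.691) after Dppa2 siRNA and 0.09 (interval -0.43 to 0.61, adjusted p = 0.914) after Dppa4 siRNA. Without 1 library the first of these ran from 0.11 (without Dppa2 siRNA library B) to 0.47 (without its library C), and the second from -0.03 (without Dppa4 siRNA library C, adjusted p = 0.973) to 0.17 (without its library A). In group rpm Ifit2 stood at 1.38 in the controls, 1.35 after Dppa2 siRNA and 1.15 after Dppa4 siRNA, so that both differences turned negative (-0.04 and -0.27), and the direction of either depends on the scale.

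Ifit1 gave 1, 5 and 1 reads in the control libraries and 0 in all 6 knockdown libraries. The control total of 7 reads is 0.0842 rpm, against the limits of 0.0475 and 0.0396 that 0 reads allow in the knockdown groups. Ifit3 gave 0 reads in all 9 libraries, which allows up to 0.0361 rpm in the controls. Of the 50-base stretches of the Ifit3 transcripts, 51.2% also occur in the nearby gene Ifit3b, which itself gave 0 reads, and 7.13% of those of Ifit1 occur in other genes, mostly in Ifit1bl2. Reads from the shared stretches cannot be placed on 1 gene.

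Isg15 encodes a ubiquitin-like protein that is joined to other proteins after interferon. It stood at -3.04, -1.68 and -1.06 in the control libraries, at -1.12, -3.21 and -0.42 after Dppa2 siRNA and at -2.38, -2.13 and -3.97 after Dppa4 siRNA. These values rest on 5, 20 and 13 reads in the controls, 12, 2 and 14 after Dppa2 siRNA and 6, 7 and 1 after Dppa4 siRNA. The control and Dppa2 siRNA groups each held high and low libraries, no Dppa4 siRNA library was above -2.13, and the groups overlapped. Against control, Isg15 differed by 0.34 (SE 0.83, interval -1.54 to 2.22, limma adjusted p = 0.947) after Dppa2 siRNA and -0.90 (interval -2.78 to 0.98, adjusted p = 0.665) after Dppa4 siRNA. The first of these ran from -0.24 without Dppa2 siRNA library C to 1.16 without Dppa2 siRNA library B, and was also negative without control library A (-0.21), and the second ran from -1.46 without control library A to -0.33 without Dppa4 siRNA library C. In ratios the intervals ran from 0.345 to 4.67 and from 0.145 to 1.97, so that changes of several fold are within them. Group rpm was 0.457 in the controls, 0.443 after Dppa2 siRNA and 0.185 after Dppa4 siRNA, with log2 differences of -0.05 and -1.31, so that on this scale too the direction after Dppa2 siRNA turned.

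Oasl2, an oligoadenylate synthetase-like antiviral protein, stood at -0.52, -1.45 and -0.58 in the control libraries, at -0.34, -0.79 and -0.42 after Dppa2 siRNA and at -0.60, -0.36 and -0.83 after Dppa4 siRNA, on 12 to 24 reads. Control library B lay below the other 8, which overlapped. Against control, Oasl2 differed by 0.34 (SE 0.31, interval -0.35 to 1.03, limma adjusted p = 0.738) after Dppa2 siRNA and 0.26 (interval -0.44 to 0.95, adjusted p = 0.758) after Dppa4 siRNA. Without control library B they were 0.04 and -0.04, and without control library A they were 0.50 and 0.42, the 2 ends of their ranges. The group rpm of Oasl2 was 0.770 in the controls, 0.760 after Dppa2 siRNA and 0.740 after Dppa4 siRNA, where both differences were slightly negative (-0.02 and -0.06).

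Bst2 encodes tetherin, which holds budding virus particles at the cell surface, and was the member with the highest level per kilobase. It stood at 5.19, 5.69 and 6.05 in the control libraries, at 6.38, 5.51 and 6.24 after Dppa2 siRNA and at 6.12, 5.88 and 5.74 after Dppa4 siRNA, on 1263 to 3018 reads. The highest value was in Dppa2 siRNA library A and the lowest in control library A, and the groups overlapped. The difference from control was 0.40 (SE 0.27, interval -0.20 to 1.0, limma adjusted p = 0.581) after Dppa2 siRNA and 0.27 (interval -0.33 to 0.88, adjusted p = 0.685) after Dppa4 siRNA. Leaving out 1 library moved the first of these between 0.17 (without control library A) and 0.67 (without Dppa2 siRNA library B), and the second between 0.05 (without control library A) and 0.48 (without control library C). In group rpm, which for this many reads rescales the matched values, the log2 differences were 0.46 and 0.28.

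The spread of Bst2 went with a property of the libraries. Transcripts under 1000 bases, 689 of the genes tested, deviated together from their mean over the libraries, by a median log2 value of -0.49, -0.10 and 0.33 in control libraries A, B and C, by 0.25, -0.27 and 0.16 after Dppa2 siRNA and by 0.20, 0.08 and -0.10 after Dppa4 siRNA. Bst2 and Isg15 have the shortest transcripts of the members, with 903 and 756 exon bases, and both were low in control library A and Dppa2 siRNA library B, where short transcripts were low, although Isg15 was lowest in Dppa4 siRNA library C. Ddx58, with 7050 exon bases, showed no such spread. After each library's length trend was removed, a step chosen after the data were seen, the difference of Bst2 from control was 0.34 (SE 0.13, interval 0.06 to 0.63, limma adjusted p = 0.183) after Dppa2 siRNA and 0.19 (SE 0.13, interval -0.09 to 0.48, adjusted p = 0.450) after Dppa4 siRNA. The standard error of Bst2 was smaller with this step, and neither difference passed the test over all genes. What set the length trend of a library was not tested.

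**Figure D2:**
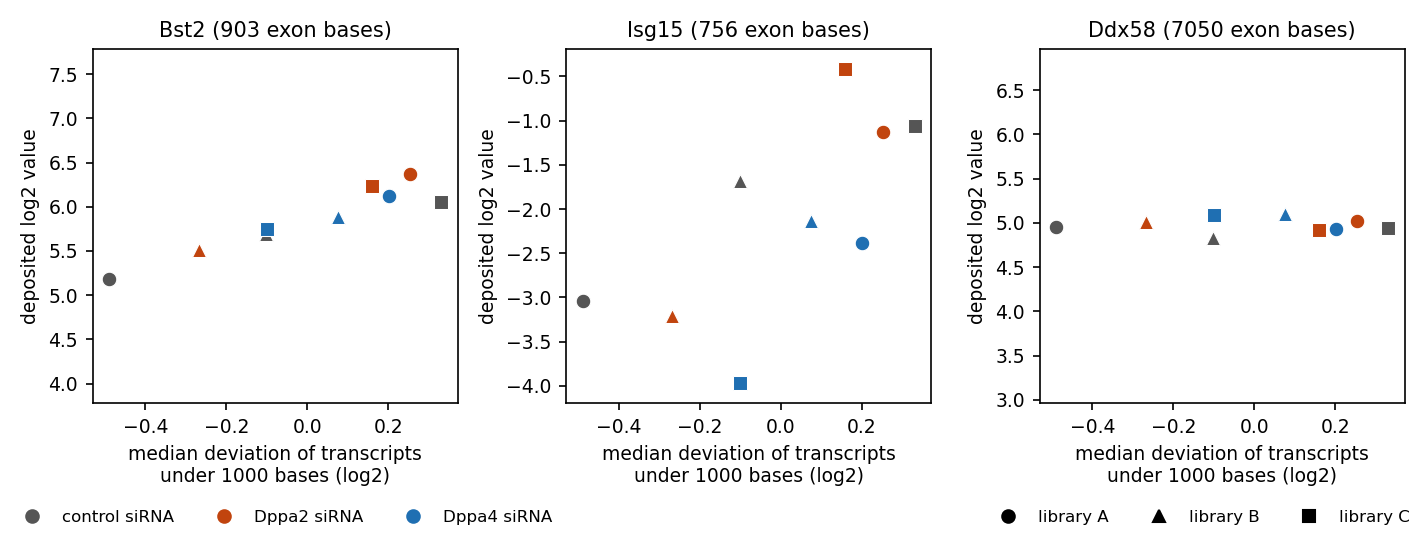
Deposited log2 value (y axis) of Bst2, Isg15 and Ddx58 in each of the 9 libraries against the median deviation of the 689 transcripts under 1000 bases in that library (x axis, log2). Color gives the siRNA and shape the library letter, and the y axes span the same range. Bst2 is lowest in control library A, which has the lowest deviation of -0.49, and Ddx58 stays between 4.83 and 5.10.

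Over the members, limma called 0 of the 5 tested members in each comparison, with 0 at an unadjusted p under 0.05 and 0 by limma and a rebuilt intensity difference filter together, and the groups overlapped for all 5. Against control, the background over the 14601 genes tested was 3.44% called after Dppa2 siRNA (1.16% higher and 2.27% lower), 15.7% at an unadjusted p under 0.05, 1.91% by both rules and 17.8% with groups that do not overlap. After Dppa4 siRNA it was 3.44% called (1.1% higher and 2.34% lower), 18% at an unadjusted p under 0.05, 1.95% by both rules and 23.9% not overlapping. With 5 genes, a count of 0 is near what these shares give. The median difference of the 5 was 0.34 after Dppa2 siRNA and 0.13 after Dppa4 siRNA, against 0.02 and 0.03 over all genes tested. In group rpm these medians were -0.02 and -0.06, against -0.04 and -0.03 over all genes with reads in both groups. The gap between the 5 and all genes seen in the log2 values did not remain. On both scales Ddx58 and Bst2 rest on matched values. Bst2 after Dppa2 siRNA was the only case in which a member passed the intensity difference filter, a comparison with genes of like level, without passing limma. The 502 genes called after Dppa2 siRNA became 315 without control library A, 314 without control library B, 255 without Dppa2 siRNA library A, 232 without its library C, and 300 without library B of Dppa4 siRNA. The 502 called after Dppa4 siRNA became 309 without control library A and 205, 184 and 280 without Dppa4 siRNA libraries A, B and C. Both comparisons use the same control libraries.

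**Figure D3:**
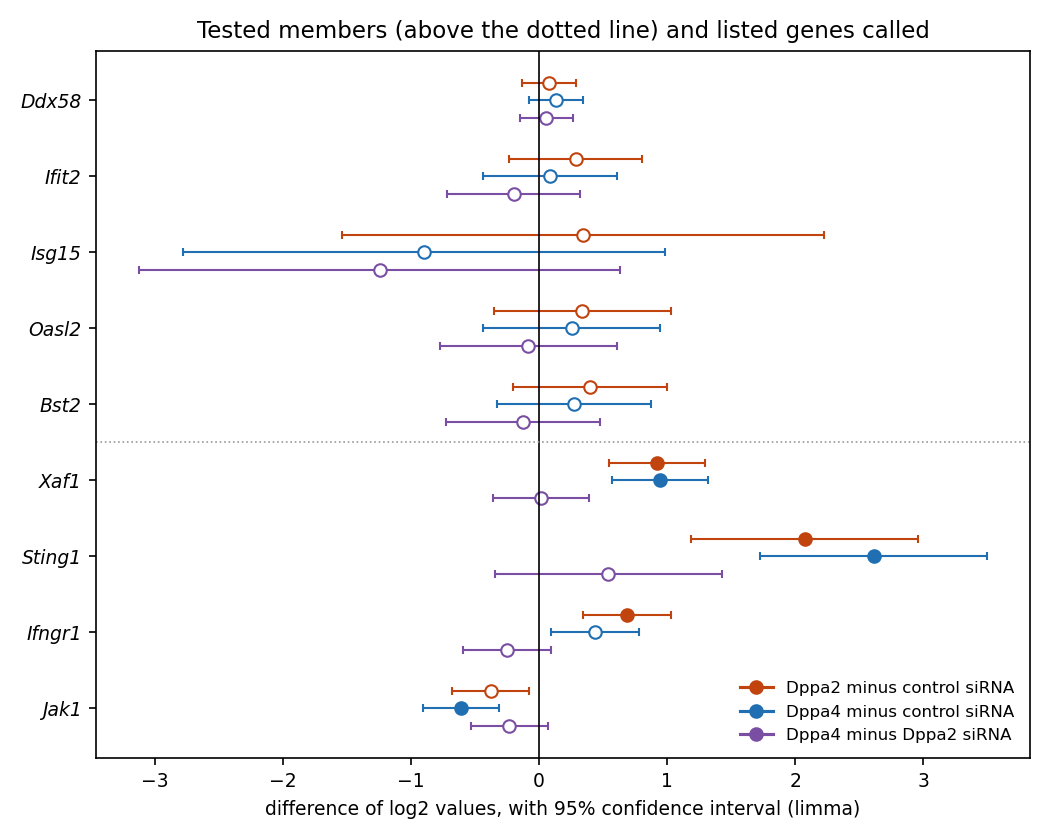
Differences of log2 values (x axis) with 95% confidence intervals from limma for the 5 tested members and for the 4 other listed genes called against control (y axis), in 3 comparisons by color. Filled points have an adjusted p under 0.05. The interval of each member includes 0 in all 3 comparisons, and Isg15 has the widest intervals.

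The direct comparison of the knockdowns, Dppa4 siRNA minus Dppa2 siRNA, gave 3 called genes in all, 0.0205% of those tested by limma alone and by both rules, with 6.76% at an unadjusted p under 0.05 and 17.6% not overlapping. They were Dppa2 (3.43, adjusted p = 2.43e-05), Dppa4 (-0.99, adjusted p = 0.00351) and 4930486L24Rik (3.26, adjusted p = 0.0106), the last named after its value was seen. Without Dppa4 siRNA library B or C, 1 gene was called, and the adjusted p of Dppa4 was 0.0688 and 0.0525. It was also 0.0514 with the correction for transcript length and 0.126 with the library letter as a replicate block. Of the 5 tested members limma called 0, with 0 at an unadjusted p under 0.05, 0 by both rules and overlapping groups for all 5. Their differences ran from -1.24 (Isg15, SE 0.83, adjusted p = 0.843) to 0.06 (Ddx58, SE 0.09, adjusted p = 0.980), with a median of -0.12 against 0.00 over all genes. In group rpm the medians were -0.17 and 0.00.

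The members were next set beside a wider list of 129 genes of interferon signalling, nucleic acid sensing, antigen presentation and RNA interference, which includes them. Of these, 90 were tested. After Dppa2 siRNA limma called 3 higher and 0 lower, with 13 higher and 4 lower at an unadjusted p under 0.05, 1 by both rules and 18 with groups that do not overlap. After Dppa4 siRNA it called 2 higher and 1 lower, with 13 higher and 8 lower at an unadjusted p under 0.05, 2 by both rules and 25 not overlapping. Between the knockdowns it called 0, with 3 at an unadjusted p under 0.05, 0 by both rules and 13 not overlapping. Over both directions together, these counts of called genes are near the shares over all genes given above. By direction, all genes gave 1.16% higher and 2.27% lower after Dppa2 siRNA, and 1.1% and 2.34% after Dppa4 siRNA. At an unadjusted p under 0.05, 1257 of all genes were higher and 1035 lower after Dppa2 siRNA, and 1435 and 1199 after Dppa4 siRNA. The listed calls leaned more to higher values, on 3 genes per comparison, which was not tested. The median difference was 0.09 after Dppa2 siRNA and -0.00 after Dppa4 siRNA, and -0.03 and -0.07 in group rpm. Without control library B, Dppa2 siRNA library A or Dppa2 siRNA library C, 0 listed genes were called after Dppa2 siRNA, and 1 without Dppa4 siRNA library B. Without control library B, Dppa4 siRNA library A or Dppa4 siRNA library B, 1 was called after Dppa4 siRNA.

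Xaf1, an interferon-inducible gene linked to apoptosis, rose in both knockdowns. It stood at 1.74, 1.37 and 1.23 in the control libraries, at 2.51, 2.30 and 2.30 after Dppa2 siRNA and at 2.44, 2.52 and 2.20 after Dppa4 siRNA. All 6 knockdown libraries lay above the 3 controls. The rise was 0.92 (SE 0.17, limma adjusted p = 0.0184) after Dppa2 siRNA and 0.94 (SE 0.17, adjusted p = 0.0167) after Dppa4 siRNA, which are 1.90-fold and 1.92-fold, and both passed the intensity difference filter too. The first had an adjusted p of 0.0731 without control library B, 0.0897 without Dppa2 siRNA library A and 0.0693 without Dppa2 siRNA library C. The second had 0.0621 without control library B, 0.0834 without Dppa4 siRNA library A and 0.0980 without Dppa4 siRNA library B.

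Sting1 encodes the adaptor of cytosolic DNA sensing, which is a separate route from RNA sensing. It stood at -1.67, -2.66 and -2.95 in the control libraries, at 0.04, -0.90 and -0.20 after Dppa2 siRNA and at 0.48, 0.05 and 0.04 after Dppa4 siRNA. The reads behind these values were 11, 11 and 4 in the controls, 29, 11 and 16 after Dppa2 siRNA and 44, 32 and 23 after Dppa4 siRNA. All knockdown libraries lay above all controls. The rise was 2.07 (SE 0.39, limma adjusted p = 0.0237) after Dppa2 siRNA and 2.61 (SE 0.39, adjusted p = 0.0080) after Dppa4 siRNA, and neither passed the intensity difference filter. In group rpm the level was 0.313 in the controls, 0.886 after Dppa2 siRNA and 1.31 after Dppa4 siRNA, which gives smaller log2 differences of 1.50 and 2.06. After Dppa2 siRNA the adjusted p was 0.0862 without control library B, 0.109 without Dppa2 siRNA library A, 0.105 without Dppa2 siRNA library C and 0.0526 without Dppa4 siRNA library B, while after Dppa4 siRNA it stayed under 0.05 without any 1 of the 9 libraries.

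Ifngr1, a chain of the receptor for interferon gamma, stood at 1.23, 1.61 and 1.64 in the control libraries, at 2.16, 2.05 and 2.32 after Dppa2 siRNA and at 1.98, 1.97 and 1.85 after Dppa4 siRNA. The 3 groups did not overlap. It rose by 0.69 (SE 0.15, limma adjusted p = 0.0460) after Dppa2 siRNA, and the difference after Dppa4 siRNA was 0.44 (adjusted p = 0.168). The call rested on nearly every library, since the adjusted p was 0.115 and 0.0864 without control libraries A and B, 0.152, 0.0665 and 0.195 without Dppa2 siRNA libraries A, B and C, and 0.0880, 0.0979 and 0.0794 without Dppa4 siRNA libraries A, B and C.

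Jak1, the kinase that serves all interferon receptors, stood at 4.98, 4.80 and 4.56 in the control libraries, at 4.35, 4.49 and 4.36 after Dppa2 siRNA and at 4.01, 4.18 and 4.32 after Dppa4 siRNA. The control libraries were the highest, and the groups did not overlap. It fell by 0.61 (SE 0.13, limma adjusted p = 0.0422) after Dppa4 siRNA, and the difference after Dppa2 siRNA was -0.38 (adjusted p = 0.197). The adjusted p of the fall was 0.103 and 0.104 without control libraries A and B, 0.0735, 0.0521 and 0.0824 without Dppa2 siRNA libraries A, B and C, and 0.179, 0.164 and 0.0697 without Dppa4 siRNA libraries A, B and C. In the direct comparison of the knockdowns the differences of Xaf1, Sting1, Ifngr1 and Jak1 were 0.02, 0.54, -0.25 and -0.23, and none of the 4 was called. In group rpm the differences from control were 0.84 and 0.88 for Xaf1 and 0.54 for Ifngr1 after Dppa2 siRNA, in the same directions as in the log2 values. For Jak1 after Dppa4 siRNA it was -0.66. Jak1 had 479 to 1530 reads per library, where rpm rescales the matched values, so its direction is no separate check.

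Some of these calls also ended under other settings. Fitted on only the 2 groups compared, the adjusted p from limma was 0.0822 and 0.0580 for Xaf1 in the Dppa2 and Dppa4 knockdowns, 0.109 for Sting1 after Dppa2 siRNA, 0.177 for Ifngr1 and 0.110 for Jak1. With the library letter as a replicate block it was 0.139 for Ifngr1 and 0.137 for Jak1. The call of Ifngr1 ended with a stricter filter (0.0518), and that of Jak1 with no filter (0.0667) and with no intensity trend (0.0517). With no filter, Jak1 passed after Dppa2 siRNA instead (0.0481). Over all alternatives the adjusted p ran from 0.0117 to 0.0897 and from 0.0114 to 0.0980 for Xaf1, from 0.010 to 0.109 and from 0.0038 to 0.0484 for Sting1, from 0.0186 to 0.195 for Ifngr1 after Dppa2 siRNA and from 0.0066 to 0.179 for Jak1 after Dppa4 siRNA.

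By list, the genes around the sensors were mostly measured. Over all genes tested, the shares to set beside the counts at an unadjusted p under 0.05 are 15.7% after Dppa2 siRNA, 18% after Dppa4 siRNA and 6.76% between the knockdowns. Of 14 cytosolic RNA sensors and adaptors 13 were tested and limma called 0 in each comparison, with 1, 2 and 0 at an unadjusted p under 0.05 after Dppa2 siRNA, after Dppa4 siRNA and between the knockdowns, and 0 by both rules. Per kilobase the most abundant were Trim25, a ubiquitin ligase that acts with RIG-I (4.28), and the kinase Tbk1 (2.57), whose differences from control lay between -0.04 and 0.07. Of 9 oligoadenylate synthetases and RNase L, a system that degrades RNA after sensing, 8 were tested and 0 called, with 4, 2 and 0 at an unadjusted p under 0.05 and 0 by both rules. Their groups did not overlap for 3, 2 and 1 (17.8%, 23.9% and 17.6% of all genes tested). The counts after Dppa2 siRNA are above the shares, and this excess was not tested. At an unadjusted p under 0.05 from limma, 3 were higher and 1 lower after Dppa2 siRNA. Differences in that comparison ran from -1.24 (Oasl1, 3 to 42 reads per library) to 2.07 (Oas1b, 2 to 10 reads per library). Oasl1 and Oas1b were named after their values were seen. The most abundant were Oas1a (0.77 per kilobase on the log2 scale) and Oas1c (0.23), and Oas1c differed from control by 0.75 (adjusted p = 0.279) and 0.71 (adjusted p = 0.270). Of 9 genes of endosomal RNA sensing 7 were tested and 0 called, with 0 at an unadjusted p under 0.05 in each comparison and 0 by both rules, led by Irak1 (2.28) and Myd88 (1.82).

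Of 6 genes of cytosolic DNA sensing 5 were tested, with Sting1 called in both knockdowns, 1, 1 and 0 at an unadjusted p under 0.05 and 0 by both rules, and with Trex1 (2.88 per kilobase, log2) and Samhd1 (2.67) the most abundant. Of 14 genes of interferon receptors and their signalling all were tested, with Ifngr1 called after Dppa2 siRNA and Jak1 after Dppa4 siRNA, with 4, 7 and 0 at an unadjusted p under 0.05 (15.7%, 18% and 6.76% of all genes tested), 0, 1 and 0 by both rules, and 6, 7 and 4 with groups that do not overlap (17.8%, 23.9% and 17.6% of all genes tested). These last counts are above the shares over all genes, and nothing particular to the list follows, since this excess was not tested. The feedback inhibitor Socs3 (5.18 per kilobase) and the receptor chain Ifnar1 (2.15) were the most abundant, so the receptor transcript was present. Of 9 interferon regulatory factors 6 were tested and limma called 0, with 2, 3 and 1 at an unadjusted p under 0.05 and 0 by both rules. Their groups did not overlap for 2, 4 and 1. The counts against control at an unadjusted p under 0.05 and without overlap are above the shares, and this excess was not tested. Irf3, the factor that acts first after sensing, was the most abundant (3.02 per kilobase), followed by Irf1 (2.68), and Irf3 differed from control by 0.08 (adjusted p = 0.944) and 0.16 (adjusted p = 0.760).

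The effector lists were uneven in level. Of 9 genes of the Ifit and Ifitm families 4 were tested and 0 called by limma, with 0, 0 and 1 at an unadjusted p under 0.05 and 0 by both rules. Ifitm2 (9.03 per kilobase, log2) and Ifitm1 (7.58), which encode membrane proteins that block viral entry, were above 99.6% and 98.8% of genes. Of 5 genes of Isg15 conjugation 3 were tested and 0 called, with 1, 1 and 0 at an unadjusted p under 0.05 and 0 by both rules, led by the conjugating enzyme Ube2l6 (-0.43) and by Isg15 itself. Of 18 other antiviral effectors 9 were tested, with Xaf1 called in both knockdowns, 2, 3 and 0 at an unadjusted p under 0.05 and 1, 1 and 0 by both rules, and with Bst2 and Ifi35 (1.22) the most abundant. Of 9 interferon-induced GTPases 5 were tested and 0 called, with 1, 1 and 0 at an unadjusted p under 0.05 and 0 by both rules, led by Gbp2 (-0.03) and Igtp (-0.77).

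Of 9 genes of antigen presentation, a later target of interferon, all were tested and limma called 0, with 1, 2 and 1 at an unadjusted p under 0.05 and 0 by both rules. Their median difference was -0.09 after Dppa2 siRNA and -0.22 after Dppa4 siRNA, and the most abundant were B2m (3.64 per kilobase, log2) and H2-K1 (2.57). Of 7 genes of the RNA interference machinery, which carries out the knockdown itself, all were tested and limma called 0, with 0 at an unadjusted p under 0.05 in each comparison and 0 by both rules. Their median difference was -0.05 after Dppa2 siRNA and -0.04 after Dppa4 siRNA, and the most abundant were Tarbp2 (3.88) and Prkra (2.44), which encode partners of Dicer.

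No read was found for the type I and type III interferon genes listed. Of 12 interferons and induced cytokines, only the chemokine gene Cxcl10 was tested (-2.80 per kilobase, log2), and it differed from control by 0.97 (SE 0.59, adjusted p = 0.523) and 0.89 (SE 0.59, adjusted p = 0.505), or by 0.24 and 0.31 in group rpm. Limma called it in 0 comparisons, with 0 at an unadjusted p under 0.05 and 0 by both rules. Ifnb1, Ifna1, Ifna2, Ifna4, Ifnl2, Ifnl3, Ifnk and Ccl5 gave 0 reads in all 9 libraries, which allows up to 0.0361 rpm over the controls, 0.0475 over the Dppa2 siRNA libraries and 0.0396 over the Dppa4 siRNA libraries. Ifng and Il6 gave 1 read each, and Tnf gave 4. Libraries were made from polyadenylated RNA collected 48 h after the second transfection, and earlier times were not sampled.

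In all, 39 listed genes were below the filter, of which 24 had at least 1 read and 15 had 0 in all 9 libraries, and the highest value in a single library was 20 reads. Among the 24, Ifih1 and Ifit1 had reads in every control library and in no knockdown library, which 3.13% of the 3902 genes below the filter with a read also showed. Ifih1, Ifit1, Cmpk2 and Mx1 had more rpm in every control library than in all 6 others, against 10.6% of the 3902, and Ifi27 had fewer, against 0.103%. Cmpk2, a nucleotide kinase induced by interferon, gave 13, 20 and 7 reads in the controls, 2, 3 and 0 after Dppa2 siRNA and 1, 3 and 5 after Dppa4 siRNA. Mx1, an antiviral GTPase, gave 7, 5 and 2 reads in the controls, 0 in each Dppa2 siRNA library and 2, 0 and 0 after Dppa4 siRNA. Ifi27 went the other way, with 0, 1 and 1 reads in the controls, 7, 4 and 4 after Dppa2 siRNA and 6, 5 and 2 after Dppa4 siRNA. Ifih1, Ifit1, Cmpk2, Mx1 and Ifi27 were picked after their reads were seen, and no test is given for them.

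By group totals, more scarce genes leaned to the controls than to either knockdown. Of the 3902, 59.5% had their highest rpm in the control group, 16.7% in the Dppa2 siRNA group and 23.8% in the Dppa4 siRNA group, and of the 24 listed genes 16, 7 and 1 did. The number of genes at the lowest value was 9109, 8423 and 9411 in the control libraries, 9797, 10035 and 10187 after Dppa2 siRNA and 9518, 9537 and 9876 after Dppa4 siRNA. Reads gained per unit of the linear value, taken from genes with 10 to 30 reads and set against those with 100 to 200 reads, gave log2 ratios of -0.16, 0.06 and -0.04 for the control libraries and of -0.36 to -0.27 for the knockdown libraries. The scale of scarce genes thus differed between control and knockdown libraries as a whole, and the part of this in the counts of Ifih1, Ifit1, Cmpk2 and Mx1 and in the rise of Sting1 was not tested.

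**Figure D4:**
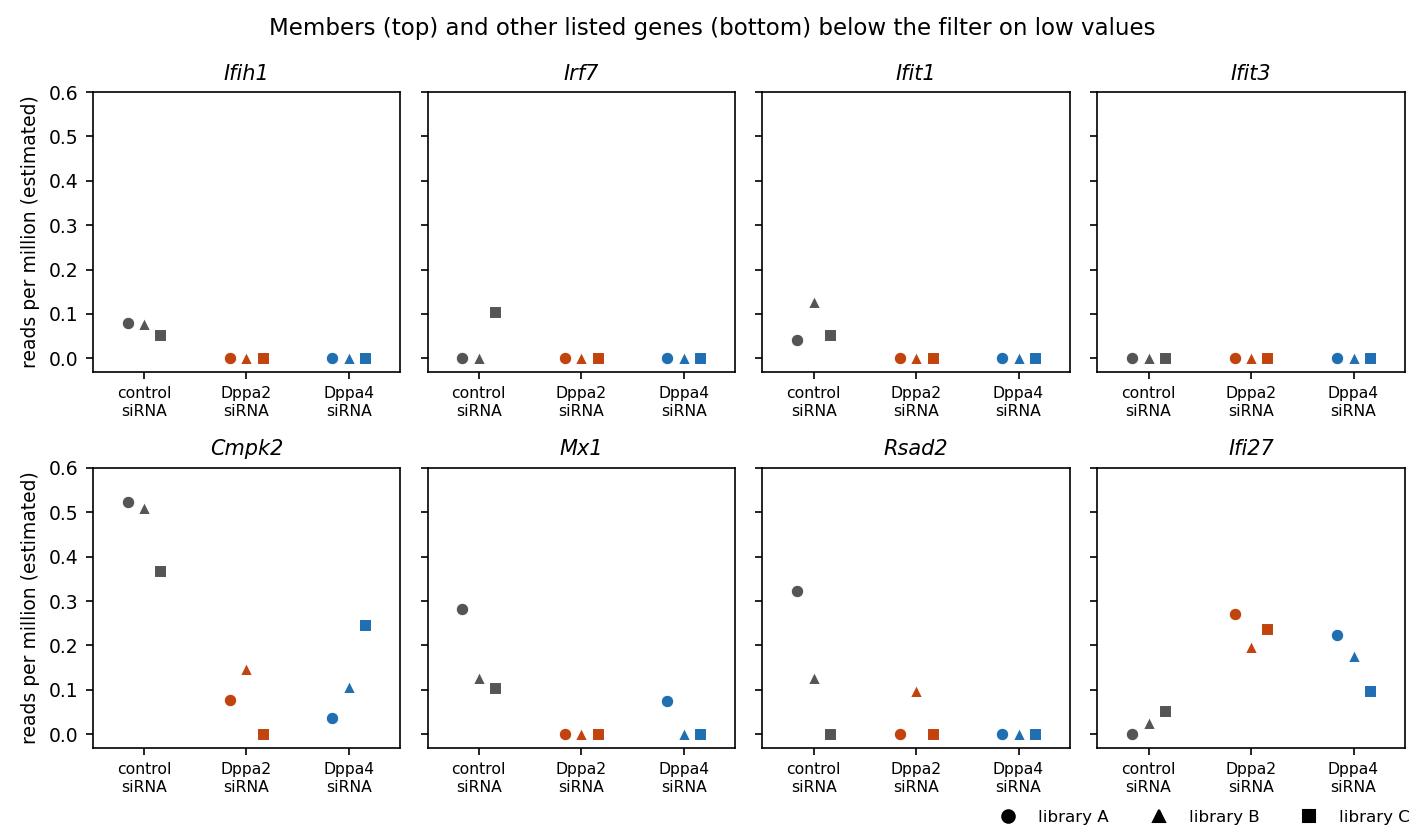
Estimated rpm (y axis, linear) of the 4 members below the filter (top) and of Cmpk2, Mx1, Rsad2 and Ifi27 (bottom) in each of the 9 libraries, by siRNA (x axis), with the library letter as the shape. The lower genes were picked after their reads were seen. Ifih1 and Ifit1 have reads in the 3 control libraries only, Ifit3 has 0 in all 9, and Ifi27 is lowest in the controls.

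Some features of the members were not used to choose them. On the GRCm38 build, Ifit2 (chr19:34550694-34576419), Ifit3 (chr19:34583531-34588731) and Ifit1 (chr19:34640871-34650009) lie on chromosome 19, all on the forward strand, with Ifit1bl1, Ifit3b and Ifit1bl2 between Ifit3 and Ifit1, and the other 6 lie on chromosomes 2 (Ifih1), 4 (Ddx58 and Isg15), 5 (Oasl2), 7 (Irf7) and 8 (Bst2). Of these 3, Ifit2 had reads in all 9 libraries while Ifit3 had 0. Promoters from RefSeq (GRCm38.p6, 250 bases before to 50 bases after the start) were matched for all 9 and searched on both strands for the core of the interferon-stimulated response element, written here as GAAA, any 2 bases, then GAAA. The motif was in the promoters of 6 of the 9 members (Ifit1, Ifit3, Isg15, Ifih1, Ddx58 and Bst2), 66.7%, and in those of 34 of the 104 listed genes that could be matched, 32.7%, against 1079 of 27025 genes, 3.99%. It was not in the windows of Ifit2, Irf7 and Oasl2.

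The motif occurred in the promoters both of Bst2, the most abundant member, and of Ifit3, which gave 0 reads. The 4 stretches below show it upstream of the start of a member at 0 reads, one near the limit, one at a low level and one at a high level, each read 5′ to 3′ on the strand of its gene with the motif or its reverse complement in capitals. The coordinates are chr19:34583363-34583392 for Ifit3, chr19:34640775-34640804 for Ifit1, chr4:156200871-156200900 for Isg15 and chr8:71537583-71537612 for Bst2. A match describes the sequence and is not evidence of binding.
Ifit3: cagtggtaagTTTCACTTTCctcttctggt
Ifit1: caggcttcagTTTCACTTTCcagtctcagt
Isg15: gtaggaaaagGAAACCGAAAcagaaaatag
Bst2: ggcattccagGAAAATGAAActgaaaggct

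Across the 9 libraries the tested members did not move as a block. The Pearson r between Isg15 and Bst2 was 0.70, that between Isg15 and Ddx58 was -0.46 and that between Ddx58 and Bst2 was 0.01, as descriptions over libraries that share their treatments and length trends. The mean of the 5 tested members on a per-gene z scale was -0.69, -0.93 and 0.22 in the control libraries, 0.86, 0.04 and 0.33 after Dppa2 siRNA and -0.14, 0.38 and -0.07 after Dppa4 siRNA. Control libraries A and B were the lowest, and control library C lay among the knockdown libraries. Of 14486 genes outside the lists, those with the highest Pearson r to this mean over the 9 libraries were Wdr90 (0.969), Glo1 (0.949), Ripply3 (0.938), Plekhm2 (0.937) and Serhl (0.936). Picked as the highest of so many genes over 9 libraries, such values are high by selection, and no test is given.

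Markers of other cell types that such a culture could hold were low next to those of ESCs. Of 8 macrophage or other leukocyte markers 3 were tested, Cd68 was the most abundant, and Adgre1 and Tyrobp gave 0 reads in all 9 libraries. Their summed level was 10.5, 12.5 and 12.5 rpm in the control libraries, 20.3, 15.2 and 18.2 after Dppa2 siRNA and 20.5, 18.6 and 15.6 after Dppa4 siRNA, higher in all 6 knockdown libraries. Cd68, above 70.6% of genes per kilobase, made up most of the sum (9.07 rpm in control library A). Fcer1g, below the filter, went the other way after Dppa2 siRNA, with 2, 8 and 3 reads in the controls and 0, 2 and 0 in that group. Of the 3 tested, limma called 0 after Dppa2 siRNA, 1 after Dppa4 siRNA and 0 between the knockdowns (3.44%, 3.44% and 0.0205% of all genes tested), with 3, 2 and 0 at an unadjusted p under 0.05 (15.7%, 18% and 6.76%), 0, 1 and 0 by both rules (1.91%, 1.95% and 0.0205%), 3, 2 and 1 not overlapping (17.8%, 23.9% and 17.6%), and a median difference of 1.22, 0.59 and -0.02. Itgam rose by 1.54 (SE 0.32, limma adjusted p = 0.0344; 1.07 in group rpm) after Dppa4 siRNA. Its adjusted p was 0.0618 without Dppa2 siRNA library A, 0.0676 without its library C, and 0.114, 0.140 and 0.113 without Dppa4 siRNA libraries A, B and C. Of 8 fibroblast or feeder markers 3 were tested, Thy1 was the most abundant, and Postn and Lum gave 0 reads in all libraries. Their sum was 11.6, 14.7 and 11.9 rpm in the control libraries, 15.7, 12.8 and 13.4 after Dppa2 siRNA and 17.0, 15.5 and 12.4 after Dppa4 siRNA, with overlap. Limma called 1, 1 and 0 of the 3, with 1, 1 and 0 at an unadjusted p under 0.05, 1, 0 and 0 by both rules, 1, 1 and 0 not overlapping and medians of 0.30, 0.12 and -0.18, to be set beside the same shares. Pdgfrb rose by 1.08 (adjusted p = 0.0072) and 0.90 (adjusted p = 0.0173), or by 0.95 and 0.77 in group rpm, and the second had an adjusted p of 0.0570 without control library A and 0.0858, 0.0619 and 0.0517 without Dppa4 siRNA libraries A, B and C.

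Of 6 primitive endoderm markers all were tested, Gata4 was the most abundant and none was at 0. Their sum was 8.29, 9.10 and 5.94 rpm in the control libraries, 7.17, 10.7 and 9.05 after Dppa2 siRNA and 14.0, 15.4 and 15.1 after Dppa4 siRNA, where all 3 libraries were above the other 6. Limma called 0 after Dppa2 siRNA, 2 after Dppa4 siRNA and 0 between the knockdowns, with 3, 5 and 2 of the 6 at an unadjusted p under 0.05 and 0 by both rules, beside the shares given for the leukocyte markers. Their groups did not overlap for 2, 5 and 4 (17.8%, 23.9% and 17.6% of all genes tested), and the median difference was 0.66, 1.21 and 0.65. After Dppa4 siRNA Gata6 rose by 1.44 (SE 0.24, limma adjusted p = 0.0132) and Sox17 by 1.20 (SE 0.25, adjusted p = 0.0348), or by 1.16 and 0.77 in group rpm. The adjusted p of Gata6 was 0.0666 and 0.0762 without Dppa4 siRNA libraries A and B, and that of Sox17 was 0.0967 without control library A, 0.0703 without control library C, and 0.143, 0.136 and 0.106 without Dppa4 siRNA libraries A, B and C. Of 6 trophoblast markers 5 were tested, Tfap2c and Eomes were the most abundant, and the sum was 60.8, 61.0 and 66.0 rpm in the control libraries, 68.9, 59.1 and 63.7 after Dppa2 siRNA and 50.2, 48.1 and 50.1 after Dppa4 siRNA. All 3 Dppa4 siRNA libraries were below the other 6. Tfap2c, above 74.1% of genes per kilobase, made up most of the sum (50.9 rpm in control library A). Limma called 0 of the 5 tested in each comparison, with 0, 1 and 1 at an unadjusted p under 0.05 and 0 by both rules, beside the same shares. Their groups did not overlap for 0, 1 and 1, and the median difference was -0.04, -0.01 and 0.01. The part of such cells in the values of Xaf1, Sting1, Ifngr1, Jak1 and the members was not tested.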

How the data were processed

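RNA-seq libraries of siRNA-treated ESCs were analysed from the table the authors deposited, which holds log2 values of reads per gene. The authors used Trim Galore for trimming (the labels and the paper give different versions), HISAT2 2.0.5 for alignment to GRCm38 and SeqMonk for strand-aware counting over mRNAs, and then made the cumulative distributions equal across the 9 libraries. The values carry no correction for transcript length. Reads were inferred from the ordered distinct values, 1 step being 1 read up to 200 reads and the slope between 100 and 200 reads serving above. Estimated depth was 16.9 to 39.2 Mreads per library, and the floor was 3 reads. It covers counting error only.

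Comparisons were fitted in limma 3.58.1 (R 4.3.3) with an intensity trend on all 9 libraries, treatment being the only term, for the 14601 genes whose log2 values exceeded -2 in 3 or more libraries. Benjamini-Hochberg adjustment ran over all of them, with a threshold of 0.05 and confidence intervals of 95%. The p-values measure the spread between libraries. The labels read rep3A, rep3B and rep3C in every group and do not say whether these libraries came from separate cultures. A legend of the paper on repeat expression in siRNA-treated cells speaks of 3 biological replicates. The fit was tested on simulated data. Exon lengths came from GENCODE annotation of GRCm38.

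Alternatives were other filters, a floor for low values, centring, other variance models, only the 2 groups compared, the replicate letter as a block, a rebuilt SeqMonk intensity difference filter (the 1% of genes nearest in level), leaving out each library, and, both added after the data were seen, a correction for transcript length and reads per Mread over each group. Named were the members, Dppa2 and Dppa4, every listed gene called, the 2 genes of each list with the highest level per kilobase, and the 5 genes most like the members. The members and lists were chosen with earlier results of these data known.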

Additional observations from a re-analysis of the deposited data

Results flagged for a closer look

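The targeted genes differed between the knockdowns in the direct test of Dppa4 siRNA against Dppa2 siRNA: Dppa2 by 3.43 on the log2 scale (limma adjusted p = 2.43e-05) and Dppa4 by -0.99 (adjusted p = 0.00351), in 3 of 3 libraries each. The call of Dppa4 ended under 4 of the 18 alternatives to the fit, with an adjusted p of 0.0688 and 0.0525 without Dppa4 siRNA libraries B and C, 0.0514 with the correction for transcript length and 0.126 with the replicate block. Limma called 0 of the 5 tested members in this test, with 0 at an unadjusted p under 0.05 and 0 by both call rules, against 0.0205%, 6.76% and 0.0205% of all genes tested, so that 0 of 5 is near what these shares give.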

How the results depend on the processing

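The members' calls depended on 1 alternative. Over 264 values of the 5 tested members under the fitted alternatives 0 were called, and 267 of 279, untested values in rpm included, kept their direction. With no filter on low values, limma called 2 members after Dppa2 siRNA, Ifih1 and Ifit3, although Ifit3 had no read in any library. That setting called 9140 genes after Dppa2 siRNA, of which 7728 were below the filter and 7489 never had more than 3 reads, and 29 listed genes. The lowest value differs slightly between libraries (-4.49 in control library C, -4.48 in Dppa2 siRNA library B), and unread genes take it. Between the knockdowns no filter gave 5 genes. Fitting only the 2 groups compared gave 230 genes after Dppa2 siRNA and 294 after Dppa4 siRNA, with 0 and 1 listed genes. The replicate block (paired letters) gave 238, 212 and, between the knockdowns, 1 gene. Both call rules together gave 279 and 284 genes, with 1 listed gene after Dppa2 siRNA. The correction for transcript length, chosen after the data were seen, gave 5 listed genes in each knockdown, Oas3 and Ifitm3 joining after Dppa2 siRNA and Ifitm3 and Tap2 after Dppa4 siRNA. Leaving out 1 library gave 232 to 494 genes after Dppa2 siRNA, 184 to 506 after Dppa4 siRNA and 1 to 3 between the knockdowns, and 0 to 3 and 1 to 3 listed genes. Some differences of the members, Dppa2, Dppa4 and the listed genes called changed sign without a library. They ranged from -0.24 to 1.16 for Isg15 after Dppa2 siRNA, and after Dppa4 siRNA from -0.14 to 0.020 for Dppa2, -0.029 to 0.17 for Ifit2 and -0.044 to 0.42 for Oasl2. Between the knockdowns they ranged from -0.22 to 0.034 for Oasl2, -0.39 to 0.042 for Bst2 and -0.050 to 0.11 for Xaf1. Other listed genes changed sign too. After Dppa2 siRNA, Trim25 ranged from -0.13 to 0.038 without a library, and Irf3 from -0.081 to 0.25 over the alternatives. Rpm over each group was chosen after the data were seen. It pools libraries of unequal depth, and its totals include reads rescaled from the matched values. In rpm the differences from control turned to -0.041 (Ifit2), -0.045 (Isg15) and -0.020 (Oasl2) after Dppa2 siRNA. After Dppa4 siRNA they turned to -0.27 (Ifit2) and -0.058 (Oasl2). Except where fewer samples or genes entered a fit, the cause was not tested. Isg15, Oasl2 and Ifit2 rest on 1 to 57 reads per library, and a response shared by all siRNA pools cannot be seen without untransfected cells.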
